A study of Mus musculus with 5 samples.

Results

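The genes described are those of the tumour necrosis factor (TNF) superfamily and its signalling, of NF-kB, of the caspases and of the Bcl2 family, in lungs of ovalbumin-sensitised and challenged mice of the inbred strain C3H (ova mice), set against pooled lung RNA of control C3H mice. Ovalbumin, a protein of egg white, serves as the allergen when allergic inflammation of the airways is modelled in mice. Amplified lung RNA of 5 ova mice was hybridised on 5 2-colour arrays, 1 mouse per array, each against amplified RNA of the same pool. No allele, treatment time, age or sex is given in the labels, nor how many control mice were pooled. Members were chosen by gene symbol alone: probes naming only 1 gene whose symbol begins with Tnf, Traf and a digit, Nfkb, Ikbk, Casp and a digit, Bcl2 or Birc1 to Birc4, or is Rel, Rela, Relb, Bax, Bak1, Bid or Mcl1. The platform annotation gave 81 such probes for 77 genes. Of these genes, 54 had a value on at least 4 arrays, out of 9727 such genes in all.

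TNF superfamily ligands are membrane or secreted trimers that bind receptors of the matching family. The receptors recruit TRAF adaptors and the ubiquitin ligases of the inhibitor of apoptosis (IAP) family, which lead to the IkB kinase complex. That kinase marks IkB proteins for destruction and so frees NF-kB dimers to enter the nucleus, where they drive genes of inflammation and of cell survival. Receptors with a death domain can instead start the caspases, proteases that take a cell apart, and the Bcl2 family decides whether mitochondria release the factors that set caspases going. In the lung this network is known for its part in leukocyte recruitment, lymphocyte costimulation and the clearance of inflammatory cells.

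Values are centred log ratios on the deposited scale, with base 2 taken, and means are given with SD over mice. Neither the log base nor the numerator of the ratio is stated in the sources used here, so a gene is said to lie on the negative side (below 0) or on the positive side (above 0). Genes known as strong responders in allergic airways lay far on the negative side in all 5 mice: Retnla between -5.17 and -4.41, and Clca1 between -4.77 and -3.69. Rnase2a (mean -4.23), Arg1 (-3.48), Muc5ac (-3.00) and Ccl11 (-0.94) lay on that side too. If such genes are higher in ova lungs, the negative side is the side of an excess there. The titles put the ova mouse first and the pool last, by which an excess in ova lungs would lie above 0. These readings disagree, and the direction was therefore not settled. Each gene's mean was tested against 0 with limma's moderated test, and a Benjamini-Hochberg adjusted p under 0.05 over all 9727 genes is called past the threshold. The spread among control mice does not enter this test, since they were pooled. A departure of the shared pool would shift every array alike, which neither agreement between mice nor leaving mice out can show. Intervals are 95% intervals of the same fit, not adjusted for the number of genes. Arrays held values for between 11778 and 13320 probes, and pairs of arrays correlated across probes with r between 0.64 and 0.83. These are whole lungs, so a change in the number of cells of a type and a change in RNA per cell cannot be told apart.

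Of the 54 measured members, 25 were past the threshold (46.3%), where 27.3% of all genes tested were. On the negative side lay 17 members (31.5%), against 15% of all genes, and on the positive side 8 (14.8%), against 12.3% of all genes. The median ratio of the members was -0.04, and that of all genes 0. Most shifts were small, as they were over all genes: 3 of 54 members had a mean beyond 0.5 in size, against 612 of all 9727 genes. All 3 lay on the negative side, and members past the threshold on the positive side reached from 0.16 to 0.47. In 26 members (48.1%) every array that measured the gene gave the same side, which held for 40.1% of all genes. Without mouse 5 the number past the threshold was 14 of 56 members (25%), and 15.96% of all genes. With any other mouse left out it was between 17 and 23. Fits without a mouse took genes with a value on at least 3 arrays, so the genes tested differ from those of the main fit. Of the 25 members, 13 were past the threshold whichever mouse was left out.

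**Figure D1:**
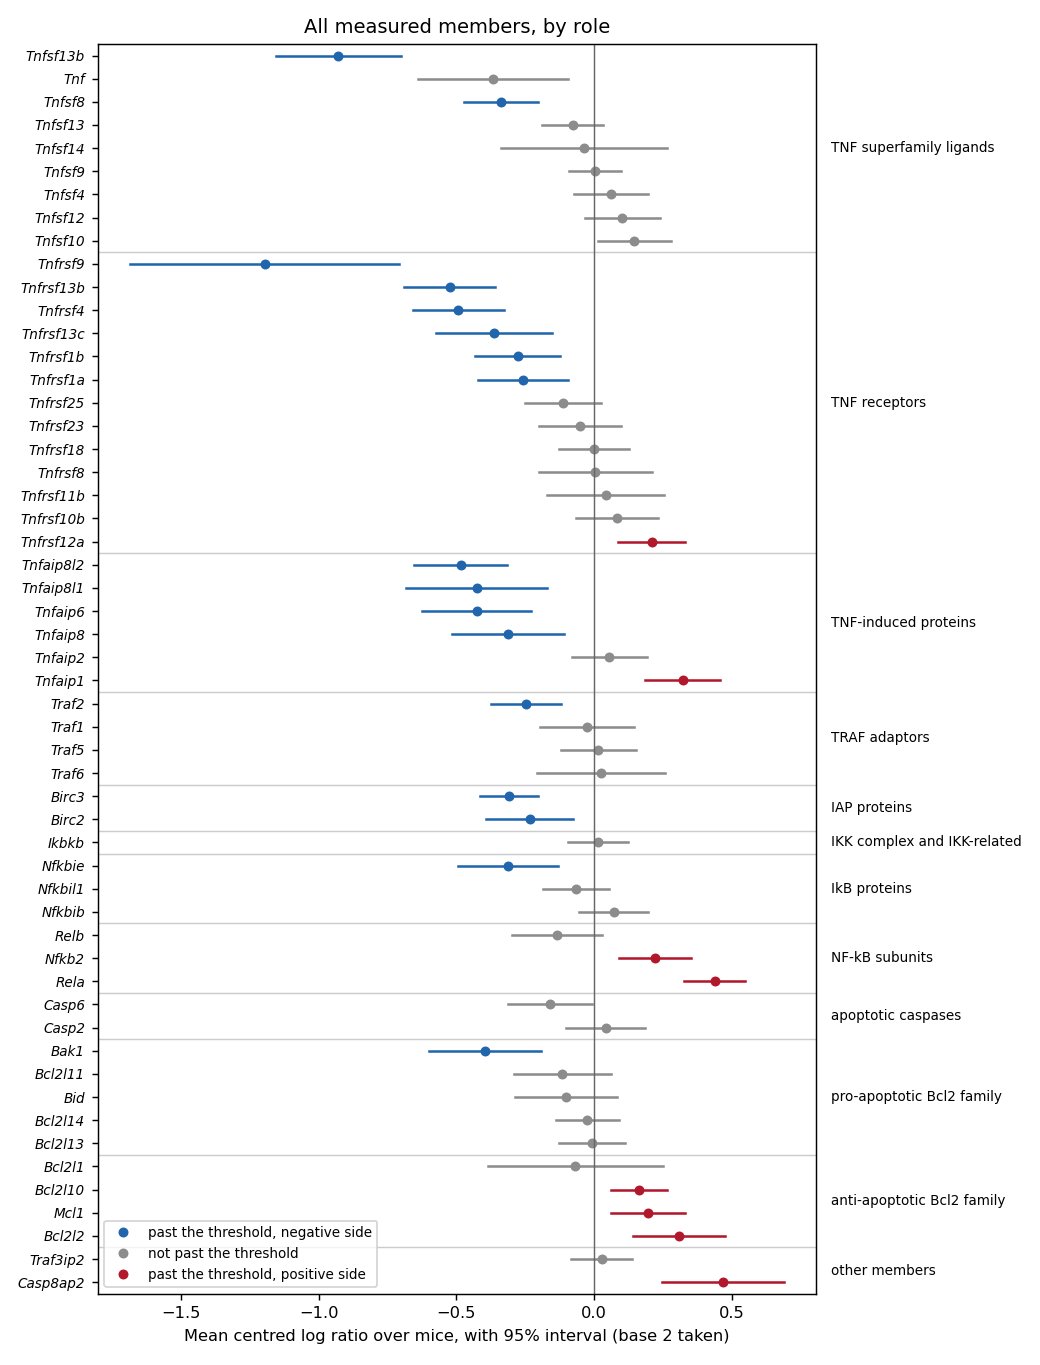
Mean centred log ratio of each of the 54 measured members (horizontal axis, base 2 taken) with its 95% interval from limma's fit, grouped by role from ligands at the top to the Bcl2 family near the bottom. Blue points are past the threshold on the negative side, red points on the positive side and grey points are not past it. The measured NF-kB subunits past it are red, as are the Bcl2 family members classed with survival that are past it. Ligands, TRAF and IAP genes past it are blue.

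The arrays differed in the size of the members' ratios. In mouse 1 the SD across members was 0.17, and in mice 2 to 5 it was between 0.36 and 0.45; over all genes these were 0.21 and 0.33 to 0.40. Mouse 1 gave the smallest ratio in size for 17 of the 25 members past the threshold. The median over the 17 negative-side members was -0.16 in mouse 1, -0.47 in mouse 2, -0.38 in mouse 3, -0.31 in mouse 4 and -0.56 in mouse 5. Those on the positive side had medians of 0.14, 0.27, 0.28, 0.31 and 0.32 in mice 1 to 5. Both sides were thus nearest to 0 in mouse 1.

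Among 9 measured ligands, 2 were past the threshold (22.2%, against 27.3% of all genes), both on the negative side, and 7 were not. Tnfsf13b encodes BAFF, the survival factor of B cells made by myeloid and stromal cells. Its ratios were -0.51, -1.16, -0.94, -1.21 and -0.83 in mice 1 to 5. All 5 mice lay below -0.5, and the mean was -0.93 ± 0.28 (n = 5, limma adjusted p = 0.00104), a 1.90-fold difference if the base is 2. Tnfsf8, the CD30 ligand of activated T cells and other leukocytes, gave -0.16, -0.27, -0.43, -0.33 and -0.49. Its mean was -0.34 ± 0.13 (n = 5, adjusted p = 0.00525), with the same side in every mouse.

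Tnf itself, the founding cytokine of the family, did not pass. Its ratios were 0.05, -0.19, -0.44, -0.36 and -0.90 in mice 1 to 5, so that mouse 1 stood on the other side from the rest and mouse 5 was the most negative. The mean was -0.37 ± 0.35 (n = 5, adjusted p = 0.0531), with an interval from -0.64 to -0.09. Without mouse 1 the mean was -0.47 with an adjusted p of 0.0184. Over its 15 alternatives the adjusted p lay between 0.0184 and 0.144, so Tnf sits at the border of the threshold. The other 6 ligands had means between -0.08 and 0.15: Tnfsf13, which encodes the BAFF relative APRIL (-0.08), Tnfsf14 or LIGHT (-0.04), the costimulatory ligands Tnfsf9 (0.005) and Tnfsf4 or OX40 ligand (0.06), Tnfsf12 or TWEAK (0.10, n = 4), and Tnfsf10, the death ligand TRAIL (0.15). Tnfsf14 was spread from -0.54 to 0.41 over mice, and its interval reached from -0.34 to 0.26. For Tnfsf9 the interval was narrow, from -0.09 to 0.10.

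Of 13 measured receptors, 6 passed the threshold below 0 (46.2%, against 15% of all genes), 1 above 0 and 6 did not pass it. The measured receptors for BAFF were Tnfrsf13b, which encodes TACI, and Tnfrsf13c, the BAFF receptor proper, and both are carried by B cells. Tnfrsf17, a further receptor for BAFF, had values on 3 arrays only (-0.13, 0.04 and -0.05) and was not tested. Tnfrsf13b gave -0.25, -0.48, -0.70, -0.49 and -0.70 in mice 1 to 5, with a mean of -0.52 ± 0.19 (n = 5, adjusted p = 0.00235). In Tnfrsf13c the ratios were -0.39, -0.26, -0.10, -0.28 and -0.79, with a mean of -0.36 ± 0.26 (n = 5, adjusted p = 0.0228). Each lay below 0 in every mouse, and mouse 5 was the most negative in both. B cell markers lay mostly on the same side: of 8 measured, 6 passed there (75%, against 15% of all genes) and 1, Vpreb3, above 0, with means from -0.55 to 0.32. The part of B cell number in these ratios was not tested.

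Receptors of T cell costimulation came next. Tnfrsf4, the OX40 receptor of activated T cells, gave -0.35, -0.56, -0.59, -0.26 and -0.71 in mice 1 to 5. Its mean was -0.49 ± 0.19 (n = 5, adjusted p = 0.00286), with every mouse below -0.2. The neighbouring gene on the chromosome, Tnfrsf18, which encodes the related receptor GITR, had a mean of -0.0005 ± 0.08 (n = 4) and an interval from -0.13 to 0.13. Of 8 measured T cell markers, 1 (Cd2, -0.54) was past the threshold, on the negative side (12.5%, against 15% of all genes). Cd3e, a chain of the T cell receptor complex, gave -0.15 and was not past it.

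Tnfrsf9, the 4-1BB receptor of activated T cells and natural killer cells, had the largest mean of all members, but its probes differed. The first probe gave -0.07, -0.40, -0.16 and -0.11 in mice 1 to 4 and no value in mouse 5. From the second probe came -0.50, -2.21, -1.98, -2.31 and -2.11 in mice 1 to 5. The second probe was thus lower in each of the 4 mice measured by both. Averaged over probes the gene had -0.29, -1.30, -1.07, -1.21 and -2.11, where the value of mouse 5 rests on the second probe, and a mean of -1.20 ± 0.65 (n = 5, adjusted p = 0.00592). Taken alone, the first probe had a mean of -0.18 (n = 4, adjusted p = 0.0869) and the second -1.82 (n = 5, adjusted p = 0.0022). The side of Tnfrsf9 was the same with either probe, and its size was not.

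**Figure D2:**
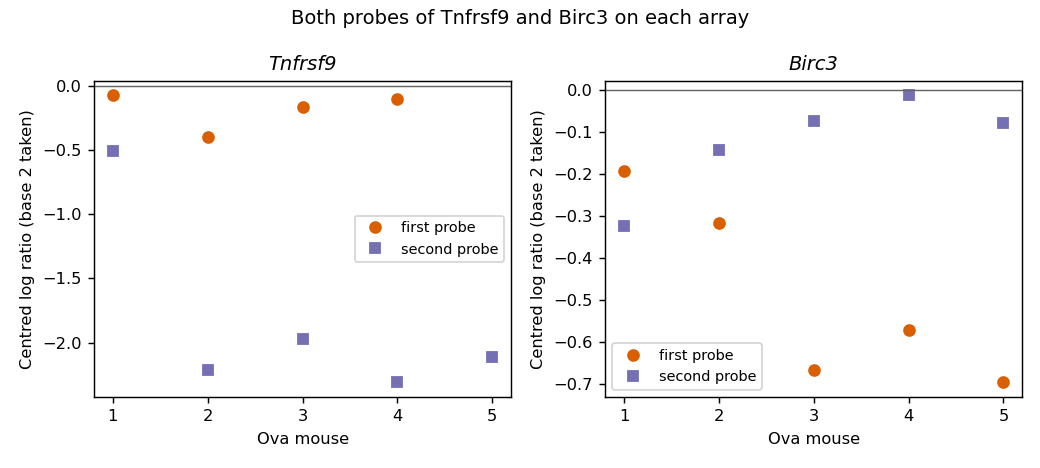
Centred log ratio (vertical axis, base 2 taken) of the first probe (orange circles) and second probe (violet squares) of Tnfrsf9 (left) and Birc3 (right) in each ova mouse (horizontal axis). The second probe of Tnfrsf9 lies near -2 in mice 2 to 5 while the first lies between -0.40 and -0.07; for Birc3 the first probe is the more negative one in mice 2 to 5.

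The receptors for TNF itself lay on the negative side with small ratios. Tnfrsf1a, the death domain receptor found on most cells, gave -0.05, -0.26, -0.15, -0.54 and -0.30 in mice 1 to 5 (mean -0.26 ± 0.18, n = 5, adjusted p = 0.0301). Its call was lost without mouse 2, 3, 4 or 5, with adjusted p-values from 0.0585 to 0.0951. The probe of Tnfrsf1a lies 18 rows from that of the chemokine gene Ccl1 (-1.30). Tnfrsf1b, the receptor concentrated on leukocytes and endothelium, gave -0.10, -0.22, -0.35, -0.20 and -0.52 (mean -0.28 ± 0.17, n = 5, adjusted p = 0.0183). Without mouse 3 or mouse 5 it was not past the threshold, with adjusted p = 0.0691 and 0.0518.

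Tnfrsf12a, the receptor for TWEAK that is induced by growth factors and injury, was the receptor past the threshold on the positive side. It gave 0.24, 0.05, 0.25, 0.17 and 0.34 in mice 1 to 5 (mean 0.21 ± 0.11, n = 5, adjusted p = 0.0226), and was not past the threshold without mouse 1, 3 or 5 (adjusted p from 0.0552 to 0.0805). The 5 remaining receptors beside Tnfrsf18 that were not past it had means between -0.11 and 0.08: the death receptor genes Tnfrsf25 (-0.11, n = 4) and Tnfrsf10b (0.08, n = 4), Tnfrsf23, a decoy receptor for TRAIL (-0.05), Tnfrsf8 or CD30 (0.01, n = 4), and Tnfrsf11b, the soluble decoy osteoprotegerin (0.04). Tnfrsf8, whose ligand gene Tnfsf8 is past the threshold, had an interval from -0.20 to 0.21.

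Adaptors and IAP genes lie directly below the receptors. Traf2, the adaptor shared by most of these receptors, gave -0.11, -0.18, -0.22, -0.30 and -0.43 in mice 1 to 5. The mean was -0.25 ± 0.12 (n = 5, adjusted p = 0.0147), with the same side in all mice and whichever mouse was left out. Traf1 (-0.03, n = 4), Traf5 (0.02, n = 4) and Traf6 (0.02), which also serves Toll-like and interleukin-1 receptors, were not past the threshold. Of these, Traf6 was spread from -0.24 to 0.50 over mice.

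Both measured IAP genes among the members lay on the negative side. Xiap, an IAP gene that the naming rule leaves out, was not past the threshold (0.09 ± 0.10, n = 5, adjusted p = 0.215). Birc2 and Birc3, adjacent genes on mouse chromosome 9, encode the closely related ubiquitin ligases cIAP1 and cIAP2, which bind TRAF2. Birc2 gave -0.09, -0.47, -0.06, -0.20 and -0.36 in mice 1 to 5 (mean -0.23 ± 0.18, n = 5, adjusted p = 0.0393), and lost its call without mouse 2, 4 or 5 (adjusted p from 0.0779 to 0.129). Birc3 averaged -0.26, -0.23, -0.37, -0.29 and -0.39 over its probes (mean -0.31 ± 0.07, n = 5, adjusted p = 0.00305). That narrow spread came from averaging probes that differed. The first gave -0.19, -0.32, -0.67, -0.57 and -0.70, with a mean of -0.49 (adjusted p = 0.00471 alone). The second gave -0.33, -0.15, -0.08, -0.01 and -0.08, with a mean of -0.13 (adjusted p = 0.124 alone). The first Birc3 probe lies 18 rows from that of Ncf4, a subunit gene of the phagocyte oxidase (-1.37), and without probes so placed the gene was not past the threshold.

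Of 3 measured NF-kB subunit genes, 2 were past the threshold, both above 0, where 12.3% of all genes were. Of 3 measured IkB genes 1 was, below 0, where 15% of all genes were. The difference between these groups was not tested. Rela, which encodes the main transactivating subunit p65, gave 0.34, 0.55, 0.49, 0.40 and 0.41 in mice 1 to 5. These values are close together, all are above 0.3, and the mean was 0.44 ± 0.08 (n = 5, adjusted p = 0.00114), past the threshold whichever mouse was left out. Nfkb2, the precursor of the p52 subunit of the alternative pathway, gave 0.09, 0.23, 0.10, 0.36 and 0.32 (mean 0.22 ± 0.12, n = 5, adjusted p = 0.0236). It was not past the threshold without mouse 2, 4 or 5, with adjusted p-values from 0.0642 to 0.0854. Relb, the partner of p52, was not past the threshold at -0.14 ± 0.18 (n = 5), with an interval from -0.30 to 0.03.

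Nfkbie, which encodes the inhibitor IkB-epsilon, lay on the negative side. It gave -0.14, -0.42, -0.50 and -0.17 in mice 1 to 4 and no value in mouse 5 (mean -0.31 ± 0.18, n = 4, adjusted p = 0.0244). Its call was lost without mouse 2 or mouse 3 (adjusted p = 0.0884 and 0.0915), and its probe lies 6 rows from that of the chemokine receptor gene Ccr1 (-1.30). Nfkbib, the gene of IkB-beta (0.07, n = 4), and Nfkbil1, an IkB-like gene (-0.07), were not past the threshold. Ikbkb, the catalytic IkB kinase gene of the canonical pathway, had 0.01 ± 0.08 (n = 5), with an interval from -0.09 to 0.12.

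Stretches of promoter are shown for the members past the threshold with an NF-kB consensus site near their start, because NF-kB is known to regulate several genes of its own pathway. RefSeq's start sites on build GRCm38.p6 were matched by gene identifier for 44 of the 54 members. The 10-base NF-kB consensus motif was searched on both strands in the 250 bases before each start, with overlapping matches merged. It was found for 6 of these 44 members (13.6%) and for 1204 of 27025 genes in the table (4.46%). Among members past the threshold it was found for 3 of 16 on the negative side and 1 of 7 on the positive side, and among the others for 2 of 21. A match is a run of letters and not a measured binding site. The lines below give the 150 bases before a start, 5′ to 3′ on the plus strand, with the match in capitals; Tnfrsf9 and Nfkb2, which lie on opposite sides of the ratio, have matches within 50 bases of the start.
Tnfrsf9 promoter, chr4:150927849-150927998: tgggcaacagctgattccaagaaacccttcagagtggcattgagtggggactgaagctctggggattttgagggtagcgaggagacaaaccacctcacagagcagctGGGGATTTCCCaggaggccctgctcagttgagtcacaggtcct
Tnfaip8l1 promoter, chr17:56162341-56162490: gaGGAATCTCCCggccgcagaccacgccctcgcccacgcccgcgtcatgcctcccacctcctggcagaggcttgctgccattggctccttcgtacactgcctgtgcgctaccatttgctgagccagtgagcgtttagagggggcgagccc
Nfkbie promoter, chr17:45555550-45555699: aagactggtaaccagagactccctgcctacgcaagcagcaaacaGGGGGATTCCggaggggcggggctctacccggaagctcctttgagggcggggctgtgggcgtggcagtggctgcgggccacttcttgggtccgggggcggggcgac
Nfkb2 promoter, chr19:46304587-46304736: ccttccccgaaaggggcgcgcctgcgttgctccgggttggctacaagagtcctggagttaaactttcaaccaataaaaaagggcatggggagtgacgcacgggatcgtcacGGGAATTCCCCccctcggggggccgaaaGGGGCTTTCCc

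In Tnfrsf9 the match begins 43 bases before the start, in Nfkbie 106 and in Tnfaip8l1 148. The Nfkb2 start shown has matches beginning 39 and 11 bases before it, and its other listed starts have matches farther upstream, at 236 and 225 bases. Among members not past the threshold, those with a match were Bcl2l1 and Tnfrsf8.

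The genes listed as TNF-induced proteins are a mixed set, grouped by symbols that begin with Tnfaip and not by a shared function. Of 6 measured, 4 passed the threshold below 0 (66.7%, against 15% of all genes), 1 above 0 and 1 did not pass it. Tnfaip8l2, which encodes TIPE2, a restraint on T cell and Toll-like receptor signalling carried by leukocytes, gave -0.15, -0.54, -0.57, -0.64 and -0.52 in mice 1 to 5. Mice 2 to 5 lay close together and mouse 1 apart from them, with a mean of -0.48 ± 0.19 (n = 5, adjusted p = 0.00341). Tnfaip6, the hyaluronan-binding protein TSG-6 made in inflamed tissue, gave -0.17, -0.30, -0.73, -0.31 and -0.61 (mean -0.43 ± 0.24, n = 5, adjusted p = 0.00936). Both were past the threshold whichever mouse was left out.

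The other relatives of Tnfaip8 were less even. Tnfaip8l1 gave -0.04, -0.88, -0.28, -0.32 and -0.62 in mice 1 to 5 (mean -0.43 ± 0.32, n = 5, adjusted p = 0.0253), and was past the threshold with all mice or without mouse 1 (otherwise adjusted p from 0.0536 to 0.0919). Tnfaip8 gave -0.31, -0.51, 0.06, -0.56 and -0.24 (mean -0.31 ± 0.25, n = 5, adjusted p = 0.0343). It was the single member past the threshold with a mouse on the other side, mouse 3, and lost its call without mouse 1, 2, 4 or 5 (adjusted p from 0.0645 to 0.105). Tnfaip1, an adaptor of a ubiquitin ligase, lay on the positive side with 0.18, 0.30, 0.34, 0.54 and 0.25 (mean 0.32 ± 0.14, n = 5, adjusted p = 0.00662). Tnfaip2, an endothelial and myeloid gene, gave 0.06 ± 0.13 (n = 5) and was not past the threshold.

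**Figure D3:**
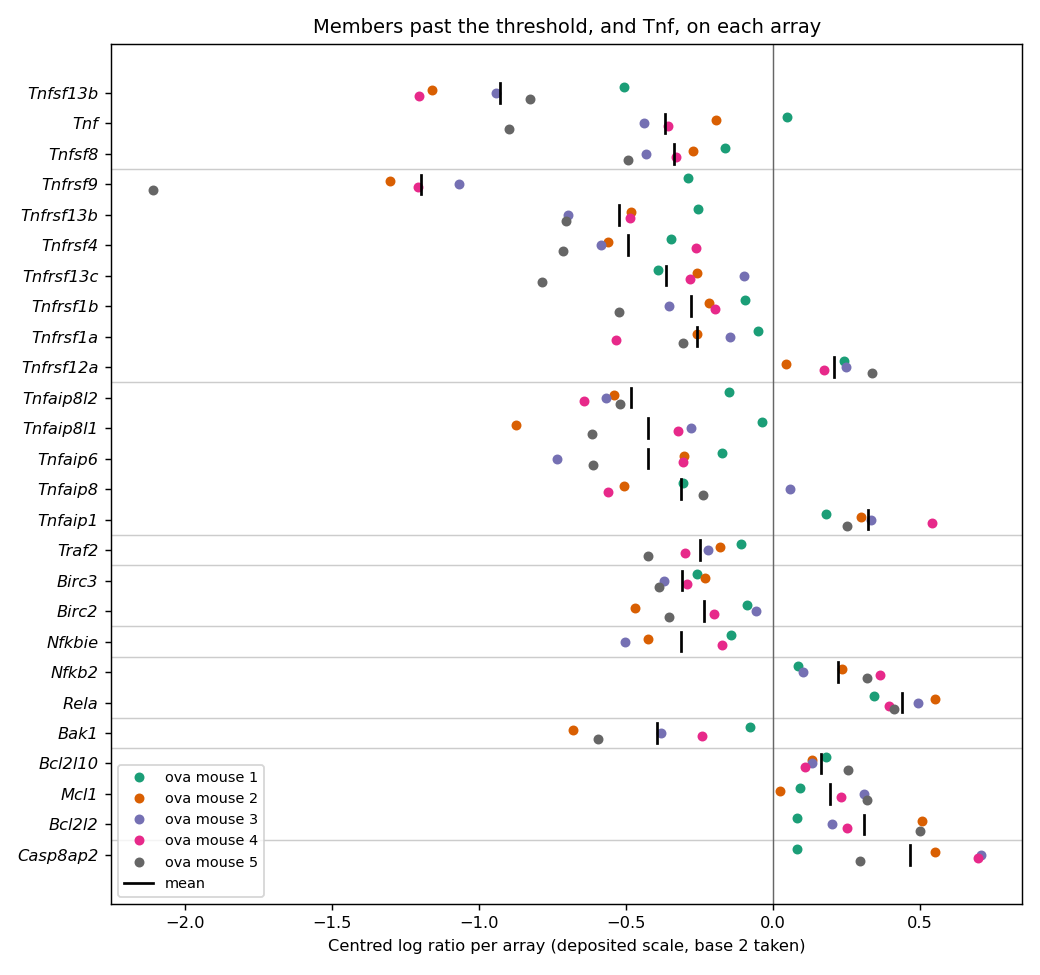
Centred log ratio (horizontal axis, base 2 taken) of the 25 members past the threshold and of Tnf in each ova mouse, one coloured point per array, with a black bar at the mean; grey lines part the role groups. Mouse 1 (green) lies nearest to 0 for 17 of the 25, and Rela has its 5 points between 0.34 and 0.55.

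Caspases were thinly measured. Casp6, an executioner caspase, gave -0.16 ± 0.16 (n = 5, adjusted p = 0.108), and Casp2, an initiator caspase, 0.04 ± 0.15 (n = 5), and neither was past the threshold. Their intervals reached from -0.31 to -0.01 and from -0.10 to 0.19. Casp8ap2, which the rule includes for its symbol, encodes the nuclear protein FLASH, which takes part in processing of histone messages and is no caspase. It gave 0.08, 0.55, 0.71, 0.70 and 0.30 in mice 1 to 5 (mean 0.47 ± 0.27, n = 5, adjusted p = 0.0101), the largest mean of the members on the positive side. Traf3ip2, an adaptor of interleukin-17 receptors, had 0.03 ± 0.08 (n = 5).

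Of 4 measured Bcl2 family members classed with survival, 3 were past the threshold on the positive side (75%, against 12.3% of all genes). Bcl2l2, which encodes BCL-W, gave 0.08, 0.51, 0.20, 0.25 and 0.50 in mice 1 to 5 (mean 0.31 ± 0.19, n = 5, adjusted p = 0.0169). Mcl1, a short-lived survival protein of many leukocytes, gave 0.09, 0.02, 0.31, 0.23 and 0.32 (mean 0.20 ± 0.13, n = 5, adjusted p = 0.0407). Bcl2l10, for which both protective and killing actions have been described in mouse cells, gave 0.18, 0.13, 0.13, 0.11 and 0.26 (mean 0.16 ± 0.06, n = 5, adjusted p = 0.0293). All 3 calls depended on single mice: Bcl2l2 lost its call without mouse 2 or 5 (adjusted p = 0.0548 and 0.0619), Mcl1 without mouse 3, 4 or 5 (from 0.0954 to 0.133) and Bcl2l10 without mouse 1, 2, 3 or 5 (from 0.0646 to 0.0995). Bcl2l1, which encodes BCL-XL, was not past the threshold at -0.07 ± 0.41 (n = 5), and was spread from -0.48 in mouse 2 to 0.62 in mouse 3; its probe lies 18 rows from that of the neutrophil gene Camp (-1.17).

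Of 5 measured members classed with death, Bak1 alone was past the threshold (20%, against 27.3% of all genes), on the negative side. The BH3-only death genes Bbc3 and Hrk, which the naming rule leaves out, were past it on the positive side. Bad (-0.18, n = 4, adjusted p = 0.0545) and Pmaip1 (-0.08, n = 4), BH3-only genes also left out, had means below 0 and were not past it. BAK is one of the proteins that open the outer mitochondrial membrane. Bak1 gave -0.08, -0.68, -0.38, -0.24 and -0.60 in mice 1 to 5, all below 0, with a mean of -0.40 ± 0.25 (n = 5, adjusted p = 0.0145). Without mouse 3 or mouse 5 it was not past the threshold, with adjusted p = 0.0509 and 0.0572. Bid (-0.10), Bcl2l11 or BIM (-0.11, n = 4), Bcl2l13 (-0.01) and Bcl2l14 (-0.02) were not past it. The probe of Bcl2l11 lies 24 rows from that of Muc5ac (-3.00).

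Genes of the same pathways outside the naming rule were taken from lists chosen by function, with earlier results of these data known. Of 24 measured genes of TNF and death receptor signalling, 6 passed the threshold below 0 and 1 above 0 (29.2% in all), close to the 27.3% of all genes tested. They included Cd40, the costimulatory receptor of B cells and antigen-presenting cells (-0.43 ± 0.15, n = 5, adjusted p = 0.00304), Fasl, the death ligand of cytotoxic lymphocytes (-0.39 ± 0.29, adjusted p = 0.0248), and the TNF receptor adaptor gene Tradd (-0.17 ± 0.05, adjusted p = 0.0244). Tab1 (-0.27), Tab2 (-0.16) and Cyld (-0.18) were the others there, and Ltbr, the lymphotoxin receptor, lay at 0.16. Of 33 genes of the apoptosis machinery, 6 passed it below 0 (18.2%) and 5 above 0 (15.2%), shares near the 15% and 12.3% of all genes. On the negative side, Naip2 (-0.38), Pycard (-0.31, n = 4) and Gsdmd (-0.29, n = 4) encode an inflammasome sensor, the inflammasome adaptor and the pore protein of pyroptosis. Pdcd6ip (-0.46), Mdm2 (-0.32) and Parp1 (-0.21) lay there too. On the positive side were Cidea, a lipid droplet protein gene of fat cells (0.64 ± 0.15, n = 5, adjusted p = 0.000849), Cidec (0.24), the BH3-only genes Bbc3 or PUMA (0.29) and Hrk (0.24), and the cochaperone gene Bag3 (0.21).

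Known NF-kB target genes had the largest ratios of these lists. Of 30 measured, 13 passed the threshold below 0 (43.3%, against 15% of all genes) and 1 above 0, with a median of -0.18. The list was chosen with earlier results of these data known, so these shares describe it and are no test of NF-kB targets. Saa3, an acute-phase serum amyloid, had -3.88 ± 0.80 (n = 5, adjusted p = 0.000227), and the complement factor gene Cfb -1.94 ± 0.60 (adjusted p = 0.000933). Cxcl1, a neutrophil chemoattractant (-1.27), the T cell chemoattractant gene Ccl5 (-0.85), Il6 (-0.83) and the immunoproteasome gene Psmb9 (-0.57) were also beyond 0.5 in size. Between -0.48 and -0.16 lay Junb, Cd44, Sele, Mmp9, Sod2, Ccl20 and Csf1. Zfp36, which encodes the messenger-destabilising protein tristetraprolin, was on the positive side at 0.29. Over all 30, past the threshold or not, 21 had a mean below 0 and 9 above it. Whether the ratio of Rela bears on those of these genes was not tested.

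Leukocyte markers lay mostly below 0 and endothelial markers above it. Of all genes tested, 15% passed the threshold below 0 and 12.3% above 0. T cell markers were near that share, with 1 of 8 past it below 0 (12.5%) and a median of -0.08. The marker lists were chosen with earlier results of these data known. Of 13 pan-leukocyte markers, 10 passed the threshold below 0 and 0 above 0, with means from -1.06 to 0.09 (Rac2 -1.06, Cd52 -0.93). Of 7 neutrophil markers, 6 passed it below 0 (from -1.17 to -0.05 over all 7; S100a8 -1.13, S100a9 -0.73), and of 10 macrophage and monocyte markers 5 (from -1.99 to -0.15; C1qb -1.99, C1qa -1.64). Eosinophil markers gave 3 of 5 there and 1 above 0 (from -4.23 to 0.30; Rnase2a -4.23, Alox15 -0.96). Of 9 endothelial markers, 8 passed it above 0 (from 0.20 to 0.82; Ace 0.82, Eng 0.64). Of 13 lung epithelial markers, 6 passed it above 0 and 3 below 0 (from -0.47 to 0.70; Hopx 0.65, Aqp5 0.51). The part of these cell types in the members' ratios was not tested. The table holds ratios and no levels, so which markers are near 0 in level is not known here, and the labelled tissue was checked only as far as 13 of 14 listed lung epithelial genes being measured.

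**Figure D4:**
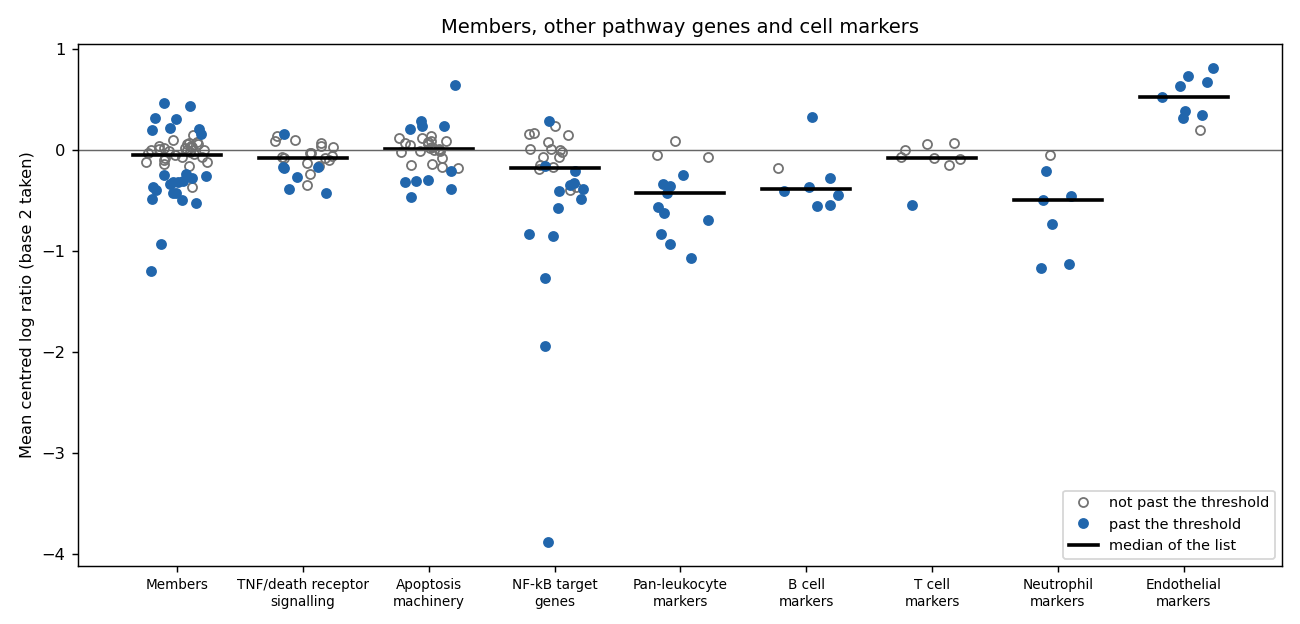
Mean centred log ratio (vertical axis, base 2 taken) of the 54 members, of 3 lists of other pathway genes and of 5 lists of cell markers, one point per gene, with a black bar at the median of each list. Filled points are past the threshold; members lie between -1.20 and 0.47, the NF-kB target list reaches -3.88, pan-leukocyte, B cell and neutrophil medians lie below 0 and the endothelial median above it.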

How the data were processed

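The values deposited by the authors, 1 for each probe on each array, were read as log2 ratios: they are signed and centred near 0, array medians lie between -0.015 and 0.008, and blanks stand where the authors gave no value. Scanner, dyes, background correction, normalization and log base have no mention in the labels. Of 17280 probes, 14722 had 1 gene symbol in the platform annotation and 1 had several; 14445 matched a gene identifier in RefSeq's GRCm38.p6 table, which changed 0 symbols. After centring of each array on its median, probes were averaged per gene and array, and genes with values on at least 4 arrays were fitted with limma 3.58.1 under R 4.3.3 (intercept only, lmFit then eBayes, two-sided; Benjamini-Hochberg adjustment, threshold 0.05). The fit was tested on simulated data. An exact sign test over 5 arrays cannot go below 0.0625, so single genes rest on the model.

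The members, role lists, pathway lists and marker lists were chosen with earlier results of these data known. All members were to be accounted for, with values on every array for those past the threshold; pathway genes past it with a mean beyond 0.5 in size, up to 8 per list, and the 2 markers of smallest p per list were to be named. Other pathway genes, Tnf's array values and probes of single genes were named after their values were seen. Alternatives were centring, quantile normalization, array scaling, blanks allowed, probe averaging, robust variance, array weights, probes 6, 18 or 24 rows from a probe beyond 1 in size, and each mouse left out. Probes of Tnfrsf9 and Birc3 taken alone were added after the data were seen.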

Additional observations from a re-analysis of the deposited data

Results flagged for a closer look

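Among 77 genes examined, 3 had a mouse set apart from the others by a gap too wide for the group's range. By chance about 1 in 20 of the genes examined would show such a gap, and 3 of 77 is no more than that. Tnfaip8l2 was at -0.15 in mouse 1, while the other mice lay between -0.64 and -0.52. The gene Nfkbib was at -0.032 in mouse 3 and between 0.09 and 0.11 in the 3 other mice that measured it. Aqp5, a water channel gene of alveolar type 1 cells and glands, was at 0.13 in mouse 1 and between 0.56 and 0.69 in the rest.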

How the results depend on the processing

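Leaving out single mice changed the counts most, and fewer arrays by themselves lower the power of the test. Those fits took genes with a value on at least 3 arrays, so between 54 and 58 members were tested in them. With 1 mouse left out, between 14 and 23 members were past the threshold (25 with all mice), between 11 and 17 on the negative side (17) and between 3 and 6 on the positive side (8); the lowest counts were those without mouse 5. Over the same fits the share of all genes past it was between 15.96% and 25.53%. Other pathway genes past the threshold numbered between 15 and 29 (32 with all mice), between 13 and 23 on the negative side (25) and between 2 and 6 on the positive side (7). Under the 10 other settings between 22 and 26 members were past it, and the median ratio of the members stayed between -0.07 and -0.03 under all 15. No member past the threshold changed side under any alternative that gave it a value. Of the 25, 11 kept their call throughout and 14 lost it at least once, and 1 of the 29 others, Tnf, gained it, under quantile normalization (adjusted p = 0.039), array scaling (0.0499), values on all arrays only (0.0487) and without mouse 1 (0.0184). Nfkbie and Tnfrsf1a had no value once probes near a strong probe were left out. No paired analysis was possible because the series holds 1 group. Spot brightness and background were not available, so faint spots could be told only by blanks.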

Other observations

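For 23 of the 77 genes (29.9%) too few values were given, against 27.5% of all 13410 named genes. No array gave a value for 10 of them: Casp1 and Casp4, the inflammatory caspases, Casp9, the initiator caspase of the mitochondrial pathway, Nfkbia and Tnfaip3, the IkB-alpha and A20 feedback inhibitors of NF-kB, Tnfrsf11a and Tnfsf11, the RANK receptor and its ligand, and Tnfrsf21, Traf4 and Traf3ip1. The other 13 had values on 1 to 3 arrays and were not tested. Casp8, the initiator caspase of death receptors, gave -0.002, -0.38 and -0.58 in mice 1, 2 and 5, and its probe lies 18 rows from that of Fcgr2b (-1.88). Bcl2 had 1 value, 0.24 in mouse 4, and Rel 1 value, -0.04 in mouse 1. The values of Tnfrsf14 lay between 0.04 and 0.05 in the 3 mice that measured it, those of Tnfrsf17 between -0.13 and 0.04, those of Tnfrsf19 between -0.10 and 0.08 and those of Tnfrsf22 between 0.01 and 0.17. Casp12, Casp14, Ikbke, Ikbkg, Nfkbiz and Bcl2l12 had 1 or 2 values each, between -0.01 and 0.16.

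Several members lie next to each other in the RefSeq gene order of GRCm38.p6 with no protein-coding gene between them. Birc2 (-0.23) and Birc3 (-0.31) were both past the threshold on the negative side. Tnfrsf1b (-0.28) lies beside Tnfrsf8 (0.01), and Tnfrsf4 (-0.49) beside Tnfrsf18 (-0.0005), on chromosome 4, and in each pair the first named was past the threshold. Tnfsf13 (-0.08) and Tnfsf12 (0.10), and Bcl2l13 (-0.01) and Bid (-0.10), were not past it. Differences within these pairs were not tested.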
